A study of Mus musculus with 5 samples.

Results

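Natural killer cells (NK cells) were taken as 145 of 57661 cells kept from 5 single-cell RNA libraries, by a rule on each cell's own transcripts. A kept cell had at least 500 UMIs (unique molecular identifiers, each standing for 1 captured RNA molecule), 250 or more genes and a mitochondrial share of at most 10%. A member had at least 1 UMI of Ncr1 or Klrb1c, which encode the receptors NKp46 and NK1.1, and at least 1 of Nkg7, a granule membrane protein. It also had no UMI of Cd3d, Cd3e or Cd3g, fewer than 3 of Gzmc, none of the macrophage gene Csf1r and at most 3 of C1qa, C1qb and C1qc together. The cells came from tumours of Lewis lung carcinoma, a mouse lung cancer line, grown in the flanks of mice. The tumour cells carried either a scrambled control guide (Scramble, 3 libraries) or a guide that targets JAG2, a gene for a Notch ligand (JAG2KO, 2 libraries). Tumours were taken at endpoint and digested with Liberase, and live CD45-positive cells, that is white blood cells, were sorted and run on the 10x 3′ protocol. Only the injected cancer cells differed in genotype by the labels, and every mouse carried a tumour; mouse strain, age, the number of clones behind each line and the number of tumours behind each library were not given in the sources used here. The p-values below therefore measure the spread between these libraries, which may be technical in part.

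NK cells are lymphocytes of the innate immune system that kill stressed or transformed cells without a rearranged antigen receptor. Activating receptors such as NKG2D and NKp46 are balanced against inhibitory receptors of the Ly49 and NKG2A families, which read MHC class I on the target. Killing runs through perforin and granzymes held in granules, and NK cells also release interferon gamma and the chemokines XCL1, CCL3, CCL4 and CCL5, which draw other immune cells into a tumour. IL-15, read through a receptor that includes Il2rb, keeps them alive, and the transcription factors T-bet and Eomes set their identity.

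Members numbered 16, 12 and 18 in Scramble libraries 1 to 3 and 53 and 46 in JAG2KO libraries 1 and 2. Their median depth was 3316, 2147.5, 2943.5, 3124 and 3058.5 UMIs per cell in that order, and their summed UMIs came to 68532, 30447, 60919, 185719 and 145432. The smallest sum, in Scramble 2, made 1 UMI worth 32.8 counts per 1000000 UMIs of that library's members (CPM), against 5.38 CPM in JAG2KO 1. Low genes were therefore read least well in the Scramble libraries. Over all cells the libraries held 8221 to 19338 kept cells, with a median of 8064.5 to 8965 UMIs in 4 of them and 2422 in JAG2KO 2, which had the most cells and stood apart from the rest. Jag2 had 1 UMI over all members, in JAG2KO 2, and the members are not the edited cancer cells, so it checks no label here.

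At the edges of the rule, 8, 4, 7, 27 and 21 members had UMIs of both Ncr1 and Klrb1c, and 3, 4, 4, 11 and 15 passed on a single UMI of the pair. The limits on Csf1r and C1q removed 19, 22 and 14 cells of Scramble and 35 and 33 of JAG2KO that otherwise met the rule. The cells removed in JAG2KO 2 had a median of 18 C1q UMIs, against 5 to 6 elsewhere. Just outside the limit on Cd3 genes were 3, 0, 2, 5 and 6 cells with a single Cd3 UMI, and 5, 2, 6, 15 and 27 cells were set aside for 3 or more Gzmc UMIs. No member had a doublet score among the highest 8% of its library. No member shared its barcode with a member of another library, and 1 member's barcode was also kept in another library.

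NK cells made up a larger share of kept cells in the JAG2KO libraries and a smaller share of lymphocytes. They were 0.168%, 0.116% and 0.219% of kept cells in Scramble 1 to 3 and 0.516% and 0.238% in JAG2KO 1 and 2. Both JAG2KO shares lay above all 3 Scramble shares, but JAG2KO 2 was close to Scramble 3, and their exact 95% intervals overlapped (0.174% to 0.317% and 0.130% to 0.346%, Clopper-Pearson, counting error only). The means were 0.168% ± 0.0514 (SD, n = 3) and 0.377% ± 0.197 (SD, n = 2), a ratio of 2.25. A two-sided exact permutation test over libraries gave p = 0.1, the smallest that 10 splits of 3 against 2 allow, so this difference cannot pass 0.05 in this design. Without JAG2KO 1 the ratio was 1.42, and without JAG2KO 2 it was 3.07. The groups overlapped when members needed 2 UMIs of Ncr1 and Klrb1c together (p = 0.2), when up to 10 C1q UMIs were allowed (p = 0.3) and when members with any T cell receptor UMI were left out (p = 0.5), all by the same exact test.

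Set against lymphocytes, counted as NK members, T cells and Gzmc-rich cells, the order of the groups turned. T cells here had a UMI of a Cd3 gene and of a T cell receptor constant gene, none of Ncr1 or Klrb1c and fewer than 3 of Gzmc, with the same limits on Csf1r and C1q, and numbered 78, 54, 58, 333 and 433. Gzmc-rich cells, with at least 3 Gzmc UMIs, numbered 12, 2, 8, 20 and 38. NK cells were 15.1%, 17.6% and 21.4% of lymphocytes in Scramble 1 to 3 and 13.1% and 8.90% in JAG2KO 1 and 2. The groups did not overlap, with means of 18.1% ± 3.19 (SD, n = 3) and 10.98% ± 2.94 (SD, n = 2) and an exact permutation p of 0.2. T cells as a share of kept cells went from 0.683% ± 0.150 (SD, n = 3) to 2.74% ± 0.709 (SD, n = 2), a ratio of 4.01 with an exact permutation p of 0.1. NK cells per 100 T cells were 20.5, 22.2 and 31.0 in Scramble and 15.9 and 10.6 in JAG2KO, again at p = 0.1 by the exact test. Shares count cells that were captured, sorted and kept, and the number of NK cells per tumour was not measured.

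**Figure D1:**
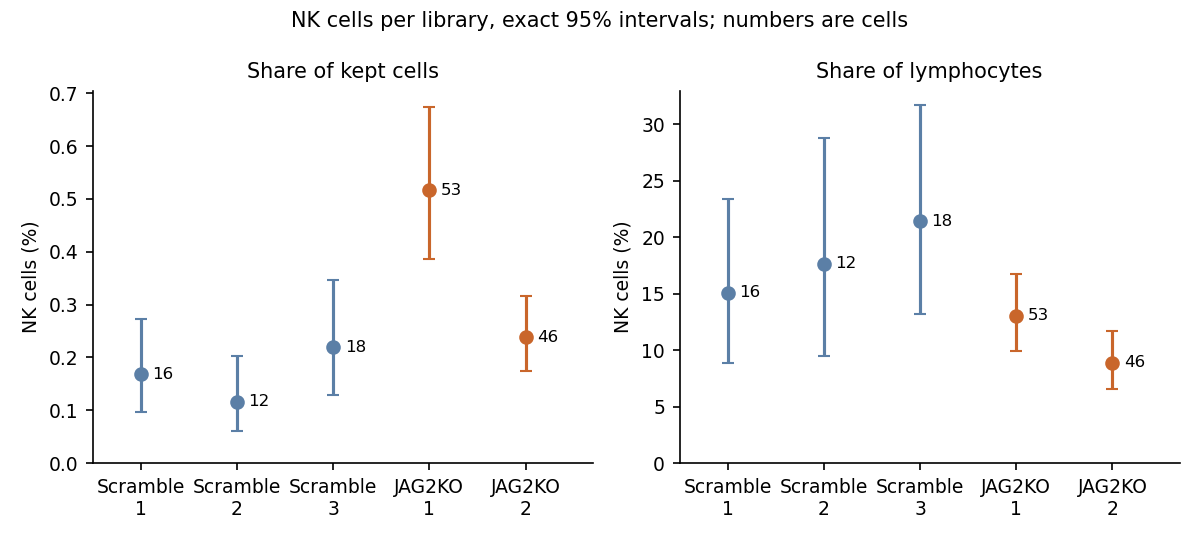
NK cells as a percent of kept cells (left) and of lymphocytes (right) in each library, with exact 95% intervals for counting error and the number of NK cells beside each point. Both JAG2KO libraries lie above the Scramble libraries on the left, JAG2KO 2 only narrowly, and below them on the right.

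The members carried NK transcripts beyond those the rule used. Over 18 other NK genes a member held a median of 40, 23, 24.5, 32 and 31 UMIs in the 5 libraries, against 2 to 5 in T cells and 0 in macrophages. Every member had at least 1 such UMI, and 1 member, in Scramble 2, had fewer than 3. Xcl1, the 1 marker of the label that the rule did not ask for, had UMIs in 11 of 16, 7 of 12, 10 of 18, 32 of 53 and 33 of 46 members. Of the 19 T cell markers, the constant genes of the T cell receptor beta chain were found in the most members. Cd28 was found in 32 of 145 members, Lef1 in 23, Trdc in 21 and Icos in 16. Trac, the alpha chain constant gene, was found in 4.35% to 8.33% of members by library against 69.0% to 77.4% of T cells. Trbc1 was found in 55.6% to 83.3% of members against 34.6% to 49.2% of T cells, and Trbc2 in 32.1% to 54.3% against 60.3% to 82.2%. Cd4 and Cd8b1 each had a UMI in at most 2.17% of the members of any library.

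Transcripts of genes typical of other cells were present in the members. A UMI of Lyz2, a macrophage and neutrophil gene, was found in 80.4% to 100% of members, but its level of 915 to 2595 CPM stood against a mean of 17110 CPM in macrophages and 1384 CPM in T cells. The 20 macrophage and monocyte markers summed to 4301 to 6864 CPM in Scramble members and to 4609 and 3287 CPM in JAG2KO members. The same sum was 2816 to 6829 CPM in T cells and 38110 to 49482 CPM in macrophages, and all 20 had a UMI in the members. The part of such transcripts in the results was not tested. The 11 neutrophil markers summed to 292, 361 and 1937 CPM in Scramble against 291 and 28 CPM in JAG2KO, with Ly6g and Lcn2 at 0. In Scramble 3, 42 of the 47 S100a9 UMIs came from 1 member. Of the markers of other innate lymphoid cells, 9 of 15 had no UMI, among them Il1rl1. Of the same list, Gata3 was found in 28 of 145 members and Arg1 in 20. The B cell gene Cd79a and the dendritic cell gene Flt3 were also at 0. Other genes of those 2 lists were found, with Ighm in 36 members, Cd74 in 51, H2-Ab1 in 40 and Bst2 in 36.

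Beside T cells, the members stood higher in receptors, adaptors and granule genes. Both classes were chosen on transcripts, so these levels are given as a description with no test. Of 9410 genes with at least 20 UMIs over both classes, 658 (6.99%) did not overlap between the 5 NK and the 5 T cell values, and 183 (1.94%) were higher in NK cells. Tyrobp, the DAP12 adaptor that couples activating receptors, stood at a mean of 2174 CPM in NK cells and 232 CPM in T cells. Fcer1g, the Fc receptor gamma chain, stood at 2431 and 337 CPM, and Irf8, an interferon regulatory factor, at 1247 and 179 CPM. Gzma stood at 2877 against 65.0 CPM and Prf1, perforin, at 673 against 56.0 CPM. The reverse held for Icos, a T cell co-stimulator, at 55.8 against 696 CPM, for Rora at 32.4 against 568 CPM and for Ikzf2 (Helios) at 295 against 1841 CPM. Each of these 8 genes kept its order in all 5 libraries without overlap. Other classes shared part of this, also with no test. The receptor adaptor list summed to 6727 to 8277 CPM in NK cells, 6019 to 7688 in Gzmc-rich cells and 6966 to 9651 in neutrophils. Granule genes summed to 7544 to 9492 CPM in NK cells and 6124 to 21357 CPM in Gzmc-rich cells. Activating receptors summed to 2984 to 4105 CPM in NK cells and 1367 to 2251 CPM in Gzmc-rich cells.

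**Figure D2:**
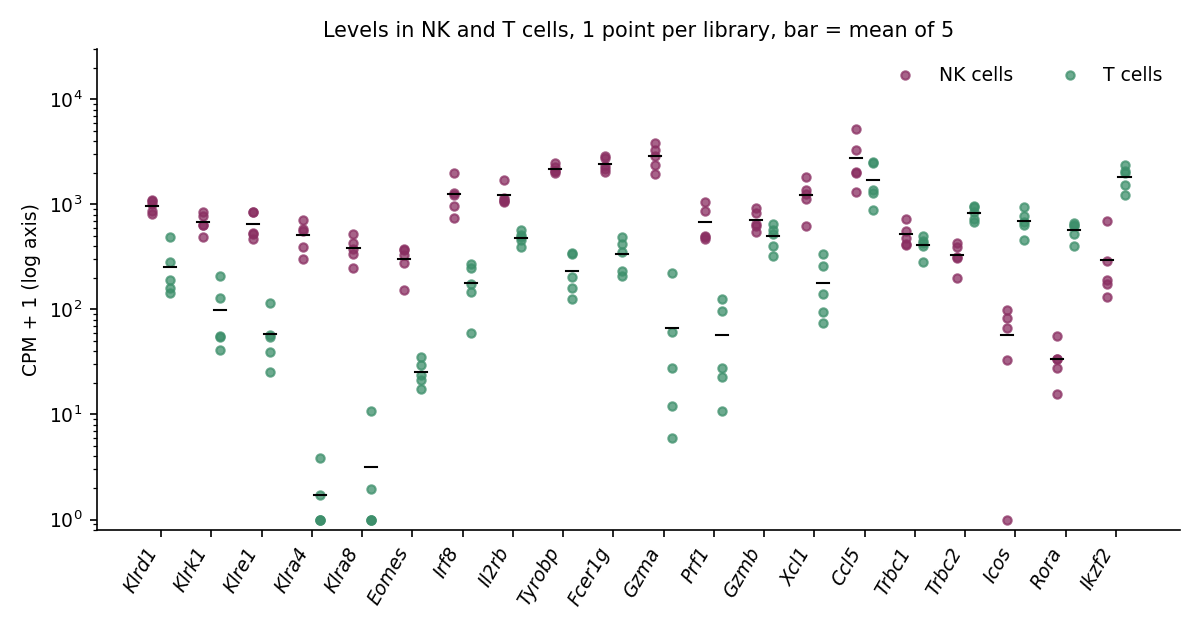
Level of 20 genes in NK cells and T cells, in CPM + 1 on a log axis, with 1 point per library and a bar at the mean of 5 libraries. Receptors and granule genes on the left are higher in NK cells without overlap, Gzmb, Ccl5 and Trbc1 overlap, and Trbc2, Icos, Rora and Ikzf2 are higher in T cells.

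Between the groups, few genes differed. UMIs were summed over the members of each library and compared by the quasi-likelihood test of edgeR, with Benjamini-Hochberg adjustment over 1260 genes and a threshold of 0.05. It called 5 genes (0.397% of those tested), 4 higher (0.317%) and 1 lower (0.0794%) in JAG2KO, and 47 genes had an unadjusted p under 0.05 (3.73%). Scaled to library size alone, 3 genes were called, all higher. The called genes were the chemokines Ccl4 and Ccl3, Thbs1 (thrombospondin 1, a secreted matrix protein), Nr4a2 (a nuclear receptor switched on by receptor signals) and, lower, Bc1 (a short non-coding RNA). For all 5 the libraries of the groups did not overlap, as was so for 186 of the 1260 genes (14.8%), 84 higher (6.67%) and 102 lower (8.1%). Counts were also simulated with these libraries' means and sizes and the same relative spread for every gene. There the same steps found 37% of genes changed 2-fold and 84% of those changed 4-fold, so smaller differences could be missed. The simulation changed 200 of the 1260 genes, far more than the 5 called in the data. With more changed genes the adjusted threshold is easier to pass, so these shares may be too high for the data. Genes whose UMIs come mostly from 1 member were not simulated, so these shares may not hold for them.

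**Figure D3:**
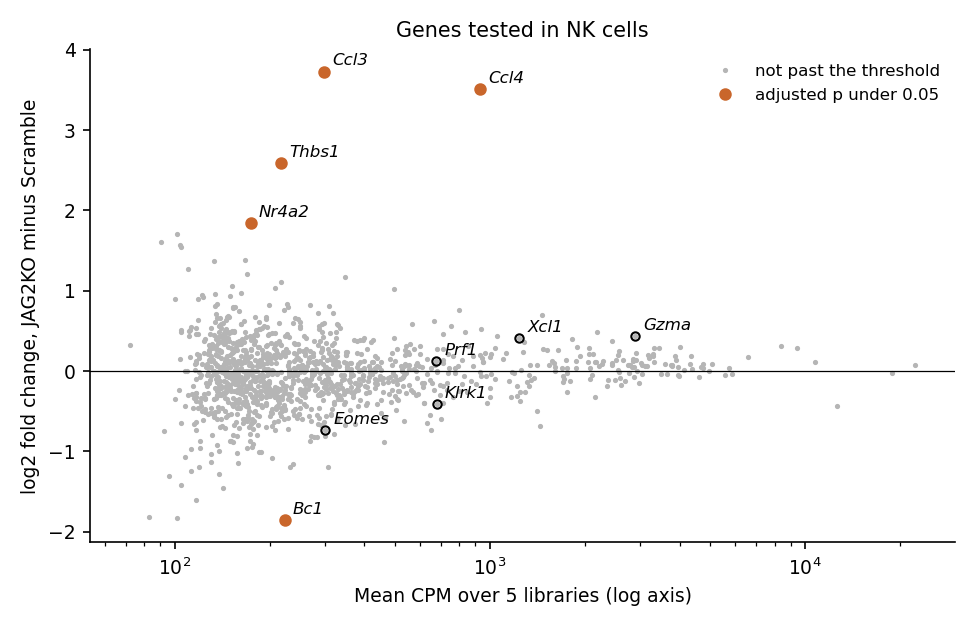
log2 fold change, JAG2KO minus Scramble, against mean CPM over 5 libraries on a log axis for the 1260 genes tested in NK cells. The 5 genes past the threshold are filled in orange, and 5 NK genes that did not pass it (Gzma, Xcl1, Prf1, Klrk1 and Eomes) are circled between -0.73 and 0.43.

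Ccl4, which encodes the chemokine MIP-1 beta, was higher in JAG2KO by 3.51 on the log2 scale (SE 0.39, adjusted p = 3.55e-09 by edgeR). It stood at 117, 131 and 279 CPM in Scramble 1 to 3 and at 2865 and 1245 CPM in JAG2KO 1 and 2. The share of members with a Ccl4 UMI did not follow this, at 3 of 16, 4 of 12 and 7 of 18 in Scramble and 13 of 53 and 15 of 46 in JAG2KO. The difference lay in UMIs per cell: 4 and 3 members of the JAG2KO libraries held at least 10 Ccl4 UMIs, and no Scramble member did. The 2 highest members of JAG2KO 1 held 347 and 134 of its 532 UMIs, and the highest of JAG2KO 2 held 117 of 181. All 7 members with 10 or more Ccl4 UMIs had 30 to 67 UMIs of the 18 other NK genes. None of them had a UMI of the neutrophil genes S100a8 or S100a9, and 3 had a UMI of Il1b. The highest member of JAG2KO 1 held 14 UMIs of Cebpb, a gene also active in macrophages and neutrophils, 19 of Gzmb and 0 of Gzma. The highest of JAG2KO 2 held 0 of Cebpb and 11 of Gzma. The members highest in Thbs1 in JAG2KO 1 and 2, described below, held 18 and 11 of Cebpb. What kind of cell these members are was not tested. Neutrophils of these tumours stood at a mean of 5109 CPM of Ccl4 and T cells at 277 CPM. With the highest member of each library left out for each gene, Ccl4 still stood at 29.2, 98.5 and 148 CPM against 996 and 440 CPM. It was the only gene called (log2 2.79, adjusted p = 0.00103 by edgeR). Over the genes tested, the highest member held a median of 25%, 33.3% and 23.5% of a gene's UMIs in Scramble. In JAG2KO it held 10.8% and 11.5%, so this step tends to lower Scramble CPM more. The part of this in the call was not tested. With at least 2 UMIs of Ncr1 and Klrb1c per member, which left 4 libraries, Ccl4 was not called (log2 3.40, adjusted p = 0.209 by edgeR).

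Ccl3, which encodes the related chemokine MIP-1 alpha, followed Ccl4 but rested on fewer cells. It stood at 14.6, 32.8 and 98.5 CPM in Scramble against 1072 and 268 CPM in JAG2KO, which is 8 UMIs over 3 libraries against 199 and 39. Its log2 fold change was 3.73 (SE 0.53, adjusted p = 2.31e-06 by edgeR). In JAG2KO 1, 171 of the 199 UMIs came from 1 member, the same that held 347 Ccl4 UMIs, and in JAG2KO 2, 36 of 39 came from the member with 117 Ccl4 UMIs. Without the highest member of each library it stood at 0, 0 and 82.1 CPM in Scramble against 151 and 20.6 CPM in JAG2KO, where the groups overlap. Without JAG2KO 1 it was not called (log2 2.45, adjusted p = 0.122 by edgeR), nor by DESeq2 (adjusted p = 0.564).

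Nr4a2 stood at 29.2, 32.8 and 181 CPM in Scramble against 312 and 316 CPM in JAG2KO (log2 1.84, SE 0.43, adjusted p = 0.0214 by edgeR). It was spread over more cells, with UMIs in 2 of 16, 1 of 12 and 5 of 18 members of Scramble and 17 of 53 and 13 of 46 of JAG2KO. The highest member held 22 of 58 UMIs in JAG2KO 1, again the member highest in Ccl4 and Ccl3, and 12 of 46 in JAG2KO 2. Its relatives were on the same side without passing the threshold: Nr4a1 at log2 0.48 (adjusted p = 1) and Nr4a3 at log2 1.70 (adjusted p = 0.843), both by edgeR. Nr4a2 lost its call when any library but Scramble 3 was left out (adjusted p from 0.122 to 0.628) and by DESeq2 (adjusted p = 0.695). Dusp2, a phosphatase induced by activation and the next gene in this direction by p, stood at 190, 263 and 246 CPM against 345 and 688 CPM and did not pass (log2 1.18, adjusted p = 0.492 by edgeR).

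Thbs1 stood at 29.2, 0 and 164 CPM in Scramble against 678 and 213 CPM in JAG2KO (log2 2.59, SE 0.50, adjusted p = 0.00122 by edgeR). Nearly all of it came from a single member in each JAG2KO library, with 124 of 126 UMIs in JAG2KO 1 and 30 of 31 in JAG2KO 2. The member of JAG2KO 1 also held 73 Il1b, 76 Slpi and 28 Cd14 UMIs, and that of JAG2KO 2 held 45 Lyz2 and 11 Cd14 UMIs, beside 8 and 4 UMIs of the 18 other NK genes. Il1b, Slpi and Cd14 are genes of neutrophils and monocytes, and neutrophils stood at a mean of 4984 CPM of Thbs1. Without the highest member of each library Thbs1 stood at 10.8 and 6.88 CPM in JAG2KO, below the 131 CPM of Scramble 3. It was not called without Scramble 1, without Scramble 2 or without JAG2KO 1 (adjusted p = 0.0860, 0.318 and 0.997 by edgeR), nor by DESeq2 (adjusted p = 0.999).

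Bc1 was lower in JAG2KO, at 379, 427 and 148 CPM in Scramble against 108 and 55.0 CPM (log2 -1.85, SE 0.43, adjusted p = 0.0214 by edgeR). In Scramble 1 its 26 UMIs came mainly from 2 members with 14 and 8, and in Scramble 2 the highest member held 8 of 13. Without the highest member of each library the groups stayed apart in level for Scramble 1 and 2 (175 and 164 CPM). Scramble 3 stood at 82.1 CPM against 64.6 and 34.4 CPM in JAG2KO. This step tends to lower Scramble CPM more, as given for Ccl4. Bc1 was not called in it (adjusted p = 0.994 by edgeR). It was also not called without Scramble 1, without Scramble 2 or without JAG2KO 2 (adjusted p from 0.304 to 0.730 by edgeR), nor by DESeq2 (adjusted p = 0.494). The next genes in this direction by p did not pass: Syncrip (log2 -1.20), Grk2 (log2 -1.08), H2-T23 (log2 -0.87) and Trp53 (log2 -1.45), with adjusted p from 0.492 to 1 by edgeR.

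**Figure D4:**
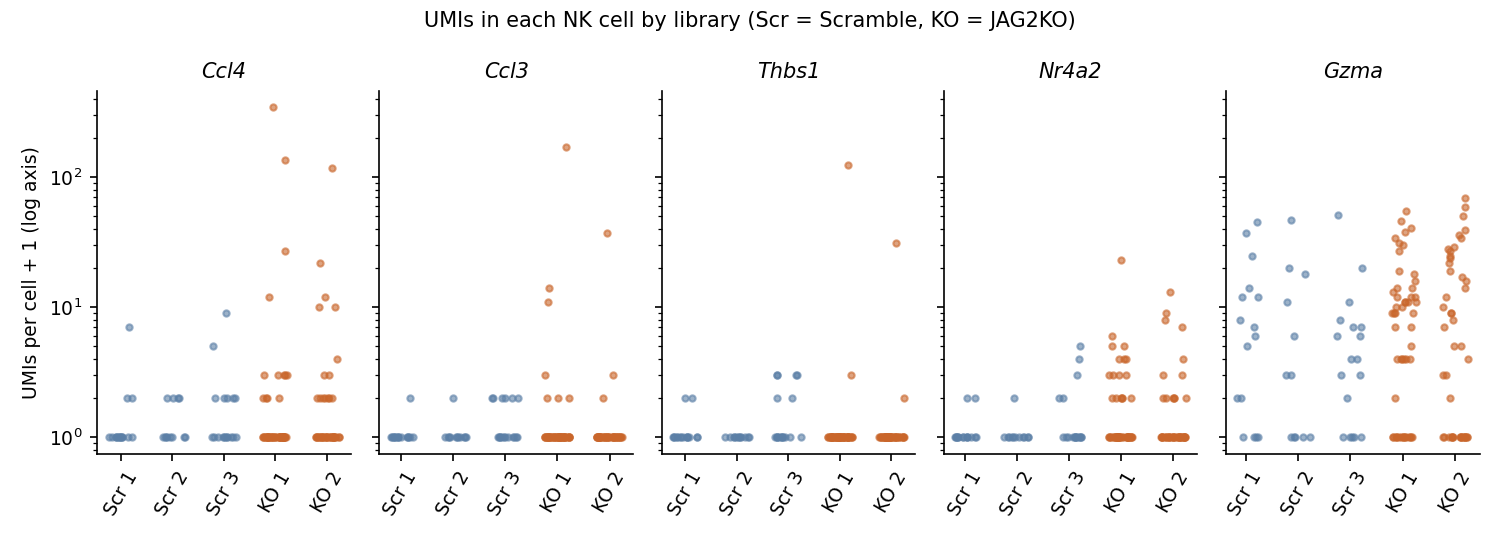
UMIs of 5 genes in each NK cell, as UMIs + 1 on a log axis, by library, with Scramble in blue and JAG2KO in orange. Ccl4, Ccl3 and Thbs1 are set by a few JAG2KO cells far above the rest, Nr4a2 by more cells at lower counts, and Gzma is spread over many cells of all 5 libraries.

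Most receptor genes of NK cells had UMIs in the members. RefSeq's table for GRCm38.p6, the build the submitters name, places 25 Klr genes on chromosome 6 between positions 122270596 and 131247716. Of these, Klrg1 lies apart at the lower end, and the others start at 128609227. A UMI in a member was found for 23 of the 25. Klrd1 (CD94), the partner chain of the NKG2 receptors, had UMIs in 119 of 145 members, Klrk1 (NKG2D) in 118 and Klre1 in 109. Of 11 Klra genes, which encode the Ly49 receptors, 10 had a UMI. Klra7 (Ly49G) was found in 61 members, Klra4 (Ly49D) in 58 and Klra8 (Ly49H) in 50. Klra4 and Klra8 encode activating receptors. In the order Klra7, Klra4 and Klra8, these genes had a mean of 32.2, 0.706 and 2.16 CPM in T cells. Over all members 111 had at least 1 Klra gene and 82 had at least 2, and 34 had none. These genes are close relatives, and reads of near-identical stretches may be split between them, so the count of Ly49 genes in a cell is uncertain.

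Among activating receptors, 9 of 16 genes could be tested between the groups and none was called, with a median log2 fold change of -0.41 beside -0.02 over all 1260 genes. Of these, 8 had a negative value and 1, Klrb1c, a positive one, beside 663 negative and 597 positive over all 1260 genes. Klrb1c and Ncr1, both in this list, are genes of the rule. Klrk1, which recognises stress ligands on tumour cells, stood at 773, 854 and 640 CPM in Scramble against 630 and 488 CPM in JAG2KO (log2 -0.41, SE 0.32, adjusted p = 1 by edgeR). The groups did not overlap, but only narrowly between Scramble 3 and JAG2KO 1. Ncr1, a gene of the rule, stood at 452, 328 and 279 CPM against 350 and 316 CPM. In the list of inhibitory and checkpoint receptors 8 of 23 genes were tested and none was called (median log2 -0.14). This list also held Klra4 (log2 -0.36), which encodes an activating receptor. Klrd1 stood at 1094, 1084 and 804 CPM against 872 and 1018 CPM, with overlap. Klrc1 (NKG2A), the inhibitory receptor for Qa-1, stood at 233, 361 and 361 CPM against 215 and 337 CPM. Of the checkpoints known from T cells, Pdcd1 (PD-1) was found in 1 of 145 members, against 15.5% to 33.5% of T cells by library. Ctla4 was found in 1, 1, 0, 2 and 6 members, at most 13.0% of a library, against 36.7% to 51.9% of T cells. Lag3 was sparse in both classes, in 0, 1, 1, 2 and 3 members (0% to 8.33%) and in 1.72% to 13.4% of T cells. Tigit had no UMI in the members, which allows a share of up to 2.07%, and was found in at most 1.20% of T cells, so this depth shows no difference between the classes.

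Granule genes were high in every library and did not separate the groups. Of 24 genes 11 were tested and none was called (median log2 0.10). Gzma, granzyme A, stood at 2378, 3317 and 1953 CPM in Scramble against 2908 and 3830 CPM in JAG2KO (log2 0.43, SE 0.33, adjusted p = 1 by edgeR). Gzmb, granzyme B, stood at 919, 821 and 624 CPM against 646 and 543 CPM (log2 -0.40, adjusted p = 1), and Prf1 at 467, 1051 and 492 CPM against 862 and 495 CPM (log2 0.13, adjusted p = 1). All 3 overlapped between the groups. Within single cells, Gzma and Gzmb were found together in 62 members, Gzma alone in 35, Gzmb alone in 7 and neither in 41, and Gzma and Prf1 together in 73. Serpinb9, the inhibitor that shields a killer cell from its own granzyme B, stood at a mean of 574 CPM against 103 CPM in T cells. Fasl, the death ligand, had UMIs in 4, 5, 7, 18 and 17 members.

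Of 20 cytokine and chemokine genes 7 were tested, and Ccl3 and Ccl4 were the 2 called; Csf2, Il10, Il13, Il22 and Ccl1 had no UMI in any member. Xcl1, the chemokine that attracts type 1 dendritic cells, stood at 1357, 624 and 1264 CPM in Scramble against 1120 and 1836 CPM in JAG2KO (log2 0.41, SE 0.33, adjusted p = 1 by edgeR). Ccl5 (RANTES) stood at 1970, 5222 and 1313 CPM against 2051 and 3287 CPM (log2 -0.02, adjusted p = 1). The spread within Scramble was larger than the difference between the groups for both. Xcl1 and Ccl5 were found together in 62 members, Xcl1 alone in 31, Ccl5 alone in 33 and neither in 19. Ifng, interferon gamma, was found in 1, 2, 5, 13 and 9 members and stood at 58.4, 65.7 and 263 CPM against 86.2 and 158 CPM (log2 -0.16, adjusted p = 1 by edgeR). Tnf had a UMI in 1 member, and Flt3l, the growth factor for dendritic cells, in 3, 0, 0, 7 and 9.

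**Figure D5:**
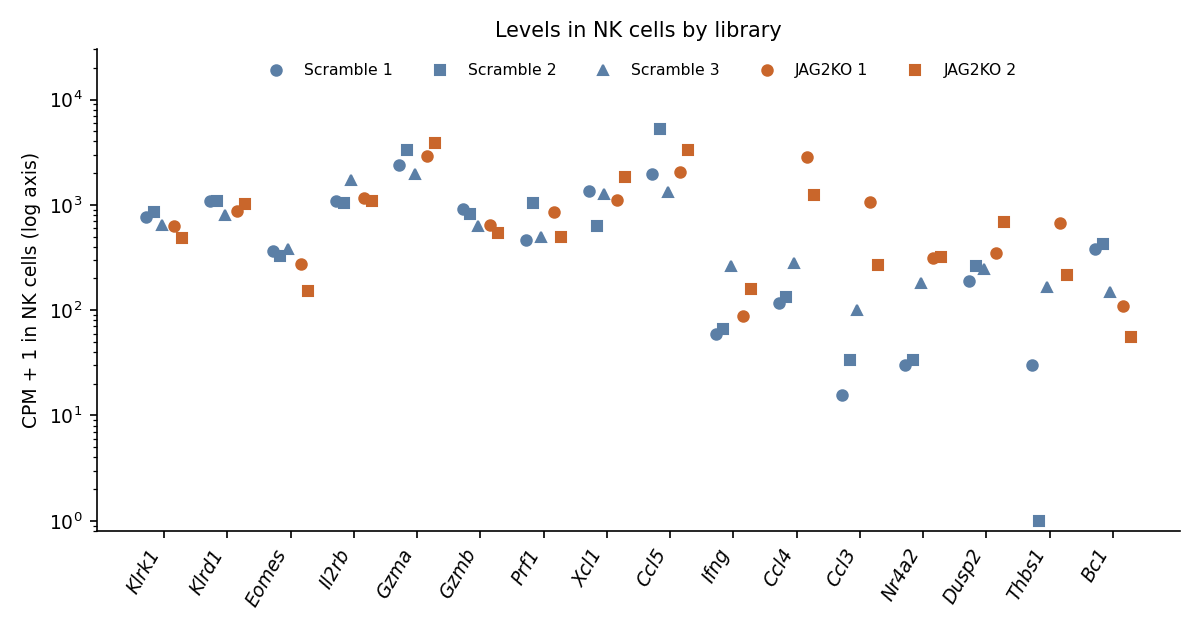
Level of 16 genes in NK cells by library, in CPM + 1 on a log axis, with Scramble in blue and JAG2KO in orange. Klrk1 and Eomes lie lower in both JAG2KO libraries without passing the test, the other genes up to Ifng mix the groups, and Ccl4, Ccl3, Nr4a2, Dusp2 and Thbs1 are higher and Bc1 lower in both JAG2KO libraries.

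Of 33 transcription factor genes 16 were tested and Nr4a2 was the 1 called (median log2 -0.25). Eomes, which marks conventional NK cells, stood at 365, 328 and 378 CPM in Scramble against 275 and 151 CPM in JAG2KO. The groups did not overlap, but the difference did not pass the adjusted threshold (log2 -0.73, SE 0.36, unadjusted p = 0.0447, adjusted p = 1 by edgeR). Zeb2, a factor of late maturation, stood at 233, 493 and 279 CPM against 215 and 131 CPM (log2 -0.81, unadjusted p = 0.0297, adjusted p = 1 by edgeR). Zeb2 is also a gene of macrophages, with a UMI in 85.8% to 98.8% of them by library. The part of macrophage RNA in its values was not tested. Tbx21 (T-bet) was too sparse to test, with 4, 0 and 3 UMIs against 12 and 9. Irf8 stood at 744, 1281 and 2003 CPM against 975 and 1231 CPM and Id2 at 905, 1642 and 1445 CPM against 926 and 1155 CPM, both with overlap.

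Cytokine receptors and their signalling genes gave 11 tested of 30 with none called (median log2 -0.11). Il2rb, shared by the IL-2 and IL-15 receptors, was found in 134 of 145 members and stood at 1080, 1051 and 1707 CPM against 1158 and 1093 CPM (log2 -0.18, adjusted p = 1 by edgeR). Il18r1, a chain of the IL-18 receptor, stood at 117, 460 and 295 CPM against 167 and 179 CPM. Stat4, which carries the IL-12 signal, stood at 87.6, 98.5 and 131 CPM against 232 and 213 CPM, without overlap (log2 1.06, unadjusted p = 0.0188, adjusted p = 1 by edgeR). Tgfbr2 and Cish, a receptor and a feedback inhibitor that restrain NK cells, were found in 36 and 13 members.

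By markers of maturation and of type 1 innate lymphoid cells, the tissue-resident relatives of NK cells, members with conventional NK genes alone were the most frequent class in each library as deposited, within the depth of single cells. A UMI of Itga2, Eomes, Klra4, Klra8, S1pr5 or Itgam and none of Itga1, Cd200r1 or Cxcr6 was found in 85 members, the reverse in 15, both kinds in 24 and neither in 21. By library the first class held 10 of 16, 10 of 12 and 11 of 18 members in Scramble and 33 of 53 and 21 of 46 in JAG2KO. Thinned to 1000 UMIs it held 9 of 16, 6 of 10 and 10 of 17 in Scramble and 29 of 50 and 18 of 44 in JAG2KO, where 20 of 44 members of JAG2KO 2 had neither kind. The 15 members with only the second kind lay 1, 1 and 0 in Scramble and 4 and 9 in JAG2KO. The lists differ in length and in how often their genes were found, so the order of the classes depends on them. Eomes had a UMI in 62 members, Klra4 in 58, Klra8 in 50, Itgam in 49, Itga2 in 31 and S1pr5 in 7. Itga1 had a UMI in 32, Cxcr6 in 9 and Cd200r1 in 5. Cd27 alone, the mark of earlier stages, was found in 22 members, Itgam alone in 37, both in 12 and neither in 74. Itgam is also a gene of macrophages, which stood at a mean of 711 CPM. Of 20 maturation genes 10 were tested and none was called (median log2 -0.18), and of 20 genes of type 1 innate lymphoid cells and residency 7 were tested and none was called (median log2 -0.12).

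Notch pathway genes were sparse in the members, with a UMI for 24 of 29 and enough for a test in 2. Notch1 had 5, 1 and 7 UMIs in Scramble and 13 and 11 in JAG2KO, and Notch2 had 2, 0 and 2 against 5 and 4. Rbpj, the DNA-binding partner of active Notch, stood at 102, 65.7 and 181 CPM against 183 and 213 CPM (log2 0.67, SE 0.45, adjusted p = 1 by edgeR). The gap between Scramble 3 and JAG2KO 1 was far smaller than the spread within Scramble. Notch3, Hes5, Hey1, Jag1 and Dll4 had no UMI.

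None of the remaining lists held a called gene. The list of NK identity genes had 20 of 25 tested (median log2 -0.11, 6 positive and 14 negative, beside 597 and 663 over all genes). It holds Nkg7, a gene of the rule. The markers of macrophages had 10 of 20 tested (median log2 -0.29) and those of T cells 2 of 19, while neutrophil, mast cell, stromal and other innate lymphoid markers had 1 gene tested each and dendritic cell, B cell and red cell markers had 0. MHC class I presentation had 18 of 20 genes tested (median log2 -0.07), glycolysis and hypoxia 8 of 25 (-0.12), survival and death 9 of 23 (-0.05), migration and adhesion 13 of 22 (-0.21), receptor adaptors 11 of 20 (-0.04) and cell cycle 7 of 25 (0.02). The type I interferon response had 4 of 32 tested (median log2 -0.35), and its gene Ifi27l2a stood at 58.4, 263 and 295 CPM in Scramble against 64.6 and 110 CPM in JAG2KO. For dissociation and stress genes 19 of 22 were tested (median log2 0.05), with Junb at 525, 624 and 739 CPM against 1028 and 1086 CPM (log2 0.76, unadjusted p = 0.019, adjusted p = 1 by edgeR). Hsp90aa1, a heat shock protein, went the other way, at 1299, 1872 and 1953 CPM against 1228 and 853 CPM (log2 -0.69, unadjusted p = 0.0386, adjusted p = 1 by edgeR).

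To see whether presence or absence of a transcript differed where its level did not, each member was thinned to 1000 UMIs and the percent with a UMI was compared. Of 40 key genes 17 were found in enough cells to test, and none passed, with adjusted p from 0.97 to 1 by the two-sided exact permutation test, whose smallest unadjusted p is 0.1. Ccl5 was found in 18.8%, 40% and 47.1% of thinned Scramble members and 52% and 59.1% of thinned JAG2KO members, and Eomes in 37.5%, 20% and 35.3% against 18% and 15.9%. Before thinning Ccl5 was found in 8 of 16, 6 of 12 and 10 of 18 against 35 of 53 and 36 of 46, and in 39.7% to 59.8% of T cells.

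A test of the interaction asked which genes changed differently in NK cells and in T cells of the same libraries. Of 4021 genes, edgeR with the library as a block called 4 (0.0995%), 2 in each direction (0.0497% each), and 196 had an unadjusted p under 0.05 (4.87%). Scaled to library size alone it called 7, of which 2 were higher and 5 lower in NK cells relative to T cells. Nkg7, among the 4, belongs to the rule and is not read further. Klrk1 was at 756 ± 108 CPM (SD, n = 3) and 559 ± 100 CPM (SD, n = 2) in NK cells, and at 49.8 ± 8.20 and 168 ± 55.6 CPM in T cells. The difference of the 2 changes was -2.09 on the log2 scale (SE 0.36, adjusted p = 0.00715 by edgeR), and the larger of the 2 moves was that of T cells. Klrk1 was not called without Scramble 2 or without JAG2KO 1 (adjusted p = 0.0696 and 0.229 by edgeR). Cd8b1, a marker of CD8 T cells, was found in 5.56% to 10.3% of T cells in Scramble and 36.0% and 33.7% in JAG2KO, so the T cells compared differ in make-up, and its part in the result was not tested.

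Spp1, osteopontin, a secreted protein made by macrophages and some lymphocytes, had like summed levels in NK cells of both groups and was low in T cells of JAG2KO. It stood at 423, 460 and 361 CPM in Scramble NK cells and 442 and 392 CPM in JAG2KO NK cells, and at 473, 416 and 235 CPM against 69.8 and 82.0 CPM in T cells. The difference of the changes was 2.33 on the log2 scale (SE 0.33, adjusted p = 0.00189 by edgeR). In macrophages Spp1 stood at 4257, 3004 and 2976 CPM in Scramble against 682 and 600 CPM in JAG2KO. The summed T cell values were thus lower in JAG2KO, as those of macrophages were. In NK cells the share of members with a Spp1 UMI was also lower in JAG2KO, at 11 of 16, 9 of 12 and 14 of 18 in Scramble against 19 of 53 and 10 of 46, with no test. Single members held 26 of the 82 Spp1 UMIs of JAG2KO 1 and 27 of the 57 of JAG2KO 2. Without the highest member of each library the change in NK cells went from 0.03 to -0.53 on the log2 scale, neither called (adjusted p = 1 and 0.994 by edgeR), and the difference from T cells was 1.68 (adjusted p = 0.00627 by edgeR). In that fit only NK members were left out and the T cell sums stayed whole, for Spp1 as for Thbs1 below. The part of macrophage RNA in these Spp1 values was not tested. Spp1 was not called without JAG2KO 1 (log2 2.08, adjusted p = 0.114 by edgeR). Gzmc-rich cells stood at a mean of 1562 CPM of Spp1. Thbs1 was the fourth gene (log2 4.37, SE 0.69, adjusted p = 0.00264 by edgeR), and its NK cell values rest on the 2 members described above. Without each gene's highest member per library its difference was -0.97 and not called (adjusted p = 1 by edgeR). Nor was it called without JAG2KO 1 (log2 3.44, adjusted p = 0.229 by edgeR).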

How the data were processed

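Single-cell RNA libraries of 3 Scramble and 2 JAG2KO samples were used, with groups and replicate numbers from the labels. Each deposited file is a matrix of unnormalized UMI counts for 32285 genes, written by cellranger 6.0.0 per the file headers. The series' design text says that barcodes holding no cell were filtered out. The submitters' processing notes name Seurat and GRCm38 (mm10) without a role. UMI counts were summed over members per library and tested with edgeR 4.0.16 (quasi-likelihood, TMM, its filter on low counts, Benjamini-Hochberg, threshold 0.05). A minimum of 20 members per library had been planned and left only 2 libraries, both JAG2KO, so a minimum of 10 was set after the cell numbers were seen. T cells needed fewer than 3 Gzmc UMIs wherever they are used, which keeps them apart from Gzmc-rich cells; this limit was added to the planned gate. Neutrophils had at least 10 UMIs of S100a8 and S100a9 and 1 of Csf3r or Cxcr2. Macrophages had a Csf1r UMI and over 3 C1q UMIs. Shares were compared by two-sided exact permutation of libraries. CPM are relative to all UMIs of the class in that library. The steps were tested on simulated data. The members, the 27 gene lists (493 genes) and the tests were chosen with earlier results of these data known. Named genes are those called at 20 CPM or more on average with the groups apart (up to 10 each way), the smallest p-values where fewer than 5 were called in a direction, 40 key genes and up to 4 members per list; Nr4a1, Nr4a3, Ikzf2, Serpinb9, Stat4 and Zeb2 were named after their values were seen, as were genes listed at 0 and genes that describe single members. Doublet scores were computed but members were not removed by them. Alternatives are given at the end. DESeq2 1.42.0 was one of them.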

Additional observations from a re-analysis of the deposited data

Results flagged for a closer look

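For 3 genes outside the rule the change between JAG2KO and Scramble differed between NK cells and T cells by a test of the difference itself (interaction of class and group, edgeR with the library as a block). For Spp1 the difference of the log2 changes was 2.33, with NK cells at 415 ± 49.9 CPM (SD, n = 3) and 417 ± 35.1 CPM (SD, n = 2) and T cells at 375 ± 124 and 75.9 ± 8.60 CPM. In JAG2KO 1 and 2 single members held 26 of 82 and 27 of 57 Spp1 UMIs, and fewer members had one (19 of 53 and 10 of 46, against 11 of 16, 9 of 12 and 14 of 18 in Scramble). With the highest NK members left out and the T cell sums whole, the difference was 1.68 and the change in NK cells -0.53. For Klrk1 it was -2.09, with both JAG2KO libraries below all Scramble libraries in NK cells and above them in T cells. For Thbs1 it was 4.37, and this value rests on 1 member in each JAG2KO library. Groups of 3 and 2 libraries are too small for a test of single outlying libraries.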

How the results depend on the processing

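The difference in the share of kept cells kept its direction in all 18 alternatives (ratio 1.42 to 3.07, exact permutation p 0.1 to 0.5), and that in the share of lymphocytes in all 16 (-9.60 to -1.91 percentage points, exact permutation p 0.1 to 0.6). These p-values could not pass 0.05 in any of them. The count of genes called in NK cells, 5 in the fit reported, stayed within 1.5 times in 10 of 19 alternatives. Among the 10, removal of high doublet scores took out no member and so only repeated the fit reported. The count was 1 by DESeq2, 3 with scaling to library size and 11 with no filter on low counts. It was 1 with at most 5% mitochondrial UMIs, 1 without each gene's highest member and 1 with sums thinned to the smallest library. With at least 2 UMIs of Ncr1 and Klrb1c it was 0 by edgeR, with 51 genes at an unadjusted p under 0.05, and Scramble 2 had too few members to enter. Leaving out 1 library gave 2 to 8 genes, with 2 without Scramble 2 and 8 without JAG2KO 2; where this left 1 JAG2KO library, it was assumed to vary like the others. The count of genes differing between NK cells and T cells, 4 in the fit reported, stayed within 1.5 times in 9 of 18. It was 7 with scaling to library size, 15 with no filter, 8 with at most 5% mitochondrial UMIs, 9 with up to 10 C1q UMIs, 9 without each gene's highest member and 2 with thinned sums. With at least 2 UMIs of Ncr1 and Klrb1c it was 0 by edgeR, with 168 at an unadjusted p under 0.05. Leaving out 1 library gave 3 to 7, with 7 without Scramble 1 and 7 without JAG2KO 2. Thbs1 turned in that comparison to -1.47 with at least 2 receptor UMIs. It turned to -0.97 without its highest NK members, where the T cell sums stayed whole. The cause of these changes was not tested. Over single genes, the 5 called ones passed in 57 of 89 refits, the repeat without high doublet scores included. The 82 named genes that were not called gave 1 new call in 1508, Hmgb2 without Scramble 1.

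With the replicate number as a block 6 genes were called, Il1b being the added one. Deviations of same-numbered libraries from their group means correlated at -0.148 and -0.0847. With 2 JAG2KO libraries the deviations of that group mirror each other, and each sum holds only 12 to 53 members. The correlations therefore cannot tell whether the numbers pair the samples. Limits on C1q, Trac and other NK UMIs, the highest-member fit and the minimum of 10 cells were chosen after seeing the data. Fits with 20 cells per library and with no T cell receptor UMI could not be run, since 2 and 1 libraries had enough members. With 12 to 53 members a library, a gene under 3 UMIs, or 16.2 to 98.5 CPM, could not be told from 0.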
